A study of Homo sapiens with 9 samples.

Results

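The genes described here are 10 enzymes of macrophage metabolism that take part in the use of tryptophan (IDO1, KMO, KYNU, IL4I1 and WARS), in the supply of NAD (NAMPT), and in the synthesis of itaconate (ACOD1), tetrahydrobiopterin (GCH1), acetylated polyamines (SAT1) and an oxysterol (CH25H). They were taken by symbol from the 34643 genes of the deposited table, and each of the 10 matched 1 row. Libraries of poly(A)-enriched RNA were sequenced from THP-1, a human monocytic leukaemia line labelled wildtype. All 9 libraries came from cells first given the phorbol ester PMA at 500 nM for 4 h, which drives this line towards a macrophage state, and then washed and rested for 24 h. The 3 groups of 3 libraries were a control with no further treatment (replicates 1 to 3), LPS, an endotoxin of Gram-negative bacteria, at 1 µg/mL (replicates 4 to 6), and LPS at 1 µg/mL with 10 µM PD (replicates 7 to 9). The series title gives PD as panaxadiol, a plant triterpenoid. No group received PD alone, and the sources used here give neither the length of exposure nor a vehicle. One leukaemia line stands for macrophages in this design, and separate cultures are not stated for the replicates, so each p-value measures only library-to-library spread, which may be technical.

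Activated macrophages are known to change the enzymes that handle small metabolites. Tryptophan can be opened to kynurenine by dioxygenases, oxidised by a secreted amino acid oxidase, or joined to its tRNA for protein synthesis. Kynurenine is processed by KMO and KYNU on a route that ends in NAD, while NAMPT recycles NAD from nicotinamide. Itaconate, tetrahydrobiopterin, acetylated polyamines and oxysterols are other products whose synthesis is controlled at the first or slowest enzyme, and several of these enzymes are known as targets of interferon or NF-kB signalling.

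Levels are given as FPKM, fragments scaled to the exon length of the gene and to the fragment total of the library. Whole fragments could be recovered from these values, which gave 15641358 to 17875224 fragments per library. Library pairs within a group correlated at 0.989 to 0.991 across the genes tested and their counts differed beyond sampling noise (chi-square over its degrees of freedom 2.39 to 3.60), so all 9 were kept as separate libraries. The myeloid factor SPI1, at a mean of 135 FPKM in control, 266 with LPS and 219 with LPS+PD, and the lysozyme gene LYZ, at 169, 158 and 301, were detected in all groups. The LPS co-receptor CD14 stood at 0.466 in control, 35.1 with LPS and 10.1 with LPS+PD. The granule enzyme gene MPO went from 2.90 to 0.220 with LPS and 0.415 with LPS+PD, and the growth factor receptor gene CSF1R from 30.4 to 78.6 and 41.3. LYZ was picked after its values were seen, as were CD68 and CD163, which stayed below 1 FPKM in every library. Of the 10 myeloid genes 8 were tested, and 5 were higher and 2 lower with LPS than in control. CD14 passed the filter only through treated libraries and MPO only through control, so their LPS calls were in part set by the filter. All 7 epithelial markers were below 1 FPKM in every library, with summed levels of 0.203 to 0.322 in control, 1.02 to 1.16 with LPS and 0.732 to 1.197 with LPS+PD. Lymphocyte markers, of which 6 of 8 were listed, summed to 4.59 to 5.32, 3.02 to 3.30 and 3.75 to 4.25 FPKM in these groups. Of 7 fibroblast and endothelial markers 6 were listed, with sums of 34.5 to 35.6, 54.2 to 56.8 and 47.4 to 48.2, nearly all of it PECAM1, which monocytes also express. The share of summed FPKM from mitochondrially encoded genes was 13.0 to 13.3% in control, 11.2 to 11.5% with LPS and 11.7 to 12.1% with LPS+PD. The part of these shifts in the results was not tested. In bulk RNA, a change in the share of cells that express a gene and a change in RNA per cell cannot be told apart.

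**Figure D1:**
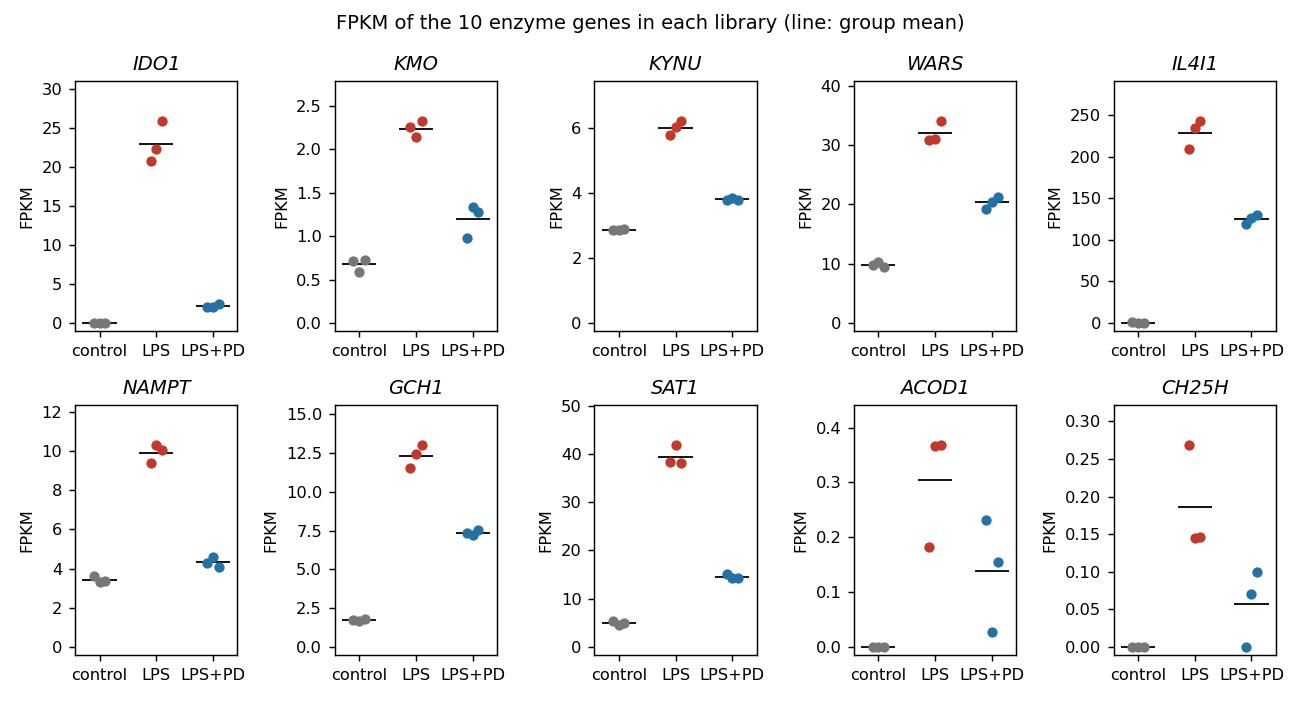
FPKM of the 10 enzyme genes (vertical axis, own scale per gene) in each of the 3 control, 3 LPS and 3 LPS+PD libraries, with points for libraries and a line for the group mean. In all 10 genes each LPS library lay above each control library, and ACOD1 and CH25H stayed below 0.4 FPKM.

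For all 10 genes every LPS library lay above every control library, a pattern seen in 28.0% of the 13692 genes tested. For 9 of the 10 every LPS+PD library lay below every LPS library, against 17.6% of the genes tested, and the exception was ACOD1. For 8 of the 10 the LPS+PD libraries also lay between the other groups with no overlap, against 11.6% of the genes tested. Differences were tested with limma on log2(FPKM + 1) over the 13692 genes that reached 1 FPKM in 3 or more libraries, and calls were made at an adjusted p (Benjamini-Hochberg) below 0.05. Of the 10 genes 8 passed that filter, and ACOD1 and CH25H did not. These 2 are thus counted among the 10 above but are not part of the 13692 genes behind the shares. All 8 were called higher with LPS than in control, against 26.4% of all genes tested (39.7% were called lower), and all 8 were called lower with LPS+PD than with LPS, against 13.0% of all genes tested and 44.5% of the genes called higher with LPS. IDO1, KMO and IL4I1 had no control library at an FPKM of 1 and passed only through treated libraries, so for these the first call was in part set by the filter. KMO reached an FPKM of 1 in 3 LPS libraries but in only 2 LPS+PD libraries, so its second call was in part set by the filter too. Over all genes 3621 were called higher and 5438 lower with LPS, a split that median-of-ratios scaling moved to 4528 and 4418. For LPS+PD against LPS the split was 3259 higher (23.8%) and 1778 lower (13.0%), and 2058 and 2508 under that scaling. These comparisons share libraries and are not independent of each other. The 10 genes were chosen with earlier results of these data known, so the shares beside their counts are a description only. The 8 genes kept both calls under every alternative in which they were tested.

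**Figure D2:**
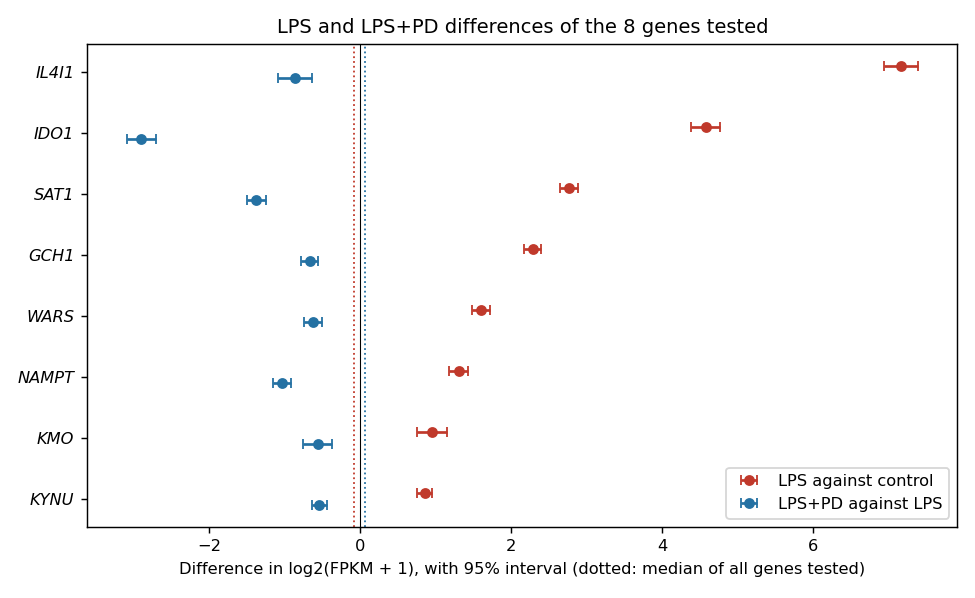
Differences in log2(FPKM + 1) of the 8 genes tested, for LPS against control and for LPS+PD against LPS, with 95% intervals from limma and dotted lines at the median of all 13692 genes. All 8 lie above 0 in the first comparison and below 0 in the second, with IDO1 lowest in the second at -2.90.

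Because all 8 genes moved the same way in both comparisons, the sequence just before their start sites is shown for 5 of them, the 3 with the largest and the 2 with the smallest fall with PD among those with a promoter in RefSeq (GRCh38.p14). Each line gives the 250 bases before the RefSeq start on the strand of the gene, with capitals for any of 6 searched motifs.
SAT1: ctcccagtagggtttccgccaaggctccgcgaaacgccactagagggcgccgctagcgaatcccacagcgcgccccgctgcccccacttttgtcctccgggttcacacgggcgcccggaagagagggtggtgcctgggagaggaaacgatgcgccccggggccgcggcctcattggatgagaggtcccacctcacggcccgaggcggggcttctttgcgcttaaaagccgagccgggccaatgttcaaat
NAMPT: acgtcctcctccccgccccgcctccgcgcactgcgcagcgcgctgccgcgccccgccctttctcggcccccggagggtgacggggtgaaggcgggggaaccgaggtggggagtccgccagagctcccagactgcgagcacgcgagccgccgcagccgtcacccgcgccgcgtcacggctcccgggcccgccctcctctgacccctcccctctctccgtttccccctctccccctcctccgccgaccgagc
IL4I1: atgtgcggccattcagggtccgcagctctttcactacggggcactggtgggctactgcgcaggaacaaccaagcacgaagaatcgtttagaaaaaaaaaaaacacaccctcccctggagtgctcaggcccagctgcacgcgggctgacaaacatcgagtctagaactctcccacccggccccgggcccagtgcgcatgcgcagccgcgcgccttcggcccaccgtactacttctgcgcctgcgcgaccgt
KMO: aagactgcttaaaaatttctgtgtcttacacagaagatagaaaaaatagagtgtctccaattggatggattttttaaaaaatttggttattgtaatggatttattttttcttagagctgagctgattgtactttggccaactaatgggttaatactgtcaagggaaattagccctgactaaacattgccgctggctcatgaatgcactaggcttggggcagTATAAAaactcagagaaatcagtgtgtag
KYNU: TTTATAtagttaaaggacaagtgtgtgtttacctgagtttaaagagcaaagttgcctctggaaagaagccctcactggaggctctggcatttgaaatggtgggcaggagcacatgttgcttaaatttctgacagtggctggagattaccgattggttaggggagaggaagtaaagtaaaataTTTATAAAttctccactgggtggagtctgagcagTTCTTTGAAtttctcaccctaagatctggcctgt
These stretches are chrX:23782923-23783172 on the plus strand for SAT1, chr7:106284984-106285233 on the minus strand for NAMPT, chr19:49929505-49929754 on the minus strand for IL4I1, chr1:241532128-241532377 on the plus strand for KMO and chr2:142877414-142877663 on the plus strand for KYNU. For NAMPT, KMO and KYNU the RefSeq start was 106284983, 241532378 and 142877664. On the strand of each gene, the bounds used for the levels begin at 106286326, 241532134 and 142877498. The NAMPT stretch thus lies wholly, and those of KMO, KYNU and IL4I1 in part, inside the gene as measured. Of the 10 genes 8 had a promoter in the RefSeq table, and IDO1 and GCH1 did not match. The motifs were searched on both strands in 300 bases, 250 before and 50 after the start. They were the core of the interferon-stimulated response element (in 3.65% of 27305 promoters of that length), TTCNNNGAA (STAT, 7.88%), the NF-kB consensus (10.8%), TGANTCA (AP-1, 7.76%), TGATGNAA (ATF4 and C/EBP, 3.67%) and TATAAA (12.0%). KYNU held the STAT motif at -34 and 6, counted from the start site, and TATAAA at -250, -68 and -66, the latter 2 overlapping. KMO held TATAAA at -29 and ACOD1 at -240 and -33. IL4I1, WARS, NAMPT, SAT1 and CH25H held none of the 6 motifs in this window, which says nothing of sites elsewhere. Exons of IL4I1 share 336 bases with NUP62 on the same strand, and whether the IL4I1 start used here also serves NUP62 was not tested.

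The enzymes that open the tryptophan ring rose most with LPS among the genes of the kynurenine route and fell most with PD. IDO1 (ENSG00000131203, GRCh38 chromosome 8, 39902275 to 39928444, plus strand) catalyses that first and rate-limiting step. It had no fragment in any control library, stood at 20.8, 22.3 and 25.9 FPKM in the LPS libraries (1186 to 1368 fragments), and at 2.01, 2.10 and 2.51 in the LPS+PD libraries (116 to 146 fragments). The 3 groups were thus far apart, and the LPS mean exceeded a floor of 3 fragments in each control library at least 410-fold, a floor that covers counting error only. With LPS+PD IDO1 kept 9.59% of its LPS level, a difference of -2.90 on the log2(FPKM + 1) scale (SE 0.09, limma adjusted p = 1.16e-07), the eighth lowest of all genes tested. The log2 difference between LPS and control was 4.58 (SE 0.09, limma adjusted p = 1.25e-10), and as control was at 0 it ran up to 11.3 over the alternatives. IDO1 shares 120 exon bases with an antisense gene. It was still called above control with LPS+PD, with a mean of 2.20 ± 0.270 FPKM (SD, n = 3) and a lower bound of 39.3-fold over the floor.

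The liver-type dioxygenase TDO2, which performs the same reaction, is no member of the set but belongs to the listed kynurenine route. TDO2 stood at 0.0709 to 0.108 FPKM in control, at 16.7, 20.9 and 23.02 with LPS and at 2.04, 2.43 and 2.08 with LPS+PD. As it passed the filter only through treated libraries, its LPS call was in part set by the filter. Its groups did not overlap, and it was called in both comparisons (log2 differences of 4.27 and -2.72, limma adjusted p = 7.14e-10 and 3.23e-07). Mean levels of TDO2 and IDO1 were thus close to each other with LPS, at 20.2 and 23.0 FPKM, and with LPS+PD, at 2.18 and 2.20.

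KMO and KYNU, which act on kynurenine next, changed less. KMO (ENSG00000117009, chromosome 1, 241532134 to 241595642, plus strand), a mitochondrial hydroxylase of kynurenine, was at 0.716, 0.591 and 0.722 FPKM in control, at 2.26, 2.14 and 2.32 with LPS and at 0.978, 1.34 and 1.27 with LPS+PD. The groups did not overlap, although the first LPS+PD library was nearer to control than the others. The mean rose 3.31-fold with LPS (log2 difference 0.95, SE 0.09, limma adjusted p = 7.83e-06) and fell by 0.56 on the log2(FPKM + 1) scale with PD (SE 0.09, limma adjusted p = 8.86e-04). Since KMO is low, these differences depend on the pseudocount, and over the alternatives they ran from 0.91 to 1.72 and from -0.92 to -0.49. Both calls were also in part set by the filter, which KMO passed only with its LPS libraries. Exons of KMO share 1691 bases (28.4%) with OPN3 on the opposite strand, and whether the authors' counting used strand is not given, so reads there cannot be assigned. OPN3 itself stood at 0.627 to 0.856 FPKM over all 9 libraries.

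KYNU (ENSG00000115919, chromosome 2, 142877498 to 143055832, plus strand) cleaves kynurenine and its hydroxylated form. It was at 2.87, 2.87 and 2.88 FPKM in control, at 5.78, 6.03 and 6.19 with LPS and at 3.79, 3.85 and 3.78 with LPS+PD. These groups were separated by more than their spread, with a 2.09-fold rise (log2 difference 0.85, SE 0.04, limma adjusted p = 9.85e-08) and a level with LPS+PD that fell by 0.54 on the log2 scale against LPS (SE 0.04, limma adjusted p = 1.46e-05).

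Of the 9 other listed genes of the kynurenine route 6 were tested, and 3 were higher and 3 lower with LPS (median log2 difference 0.10, against -0.08 over all genes). KYAT1, also among the 3 higher and looked up after its values were seen, passed the filter only through treated libraries, as did TDO2. With LPS+PD against LPS 3 were higher and 2 lower (median 0.17, against 0.07 over all genes). The 3 genes that were lower with LPS and higher with LPS+PD than with LPS were QPRT, HAAO and AFMID. QPRT, which makes the mononucleotide that enters NAD synthesis, went from a mean of 49.5 FPKM in control to 25.7 with LPS and 37.8 with LPS+PD (limma adjusted p = 1.39e-07 and 3.20e-05). HAAO, the oxygenase just before it, went from 5.77 to 3.38 and 4.81 (limma adjusted p = 0.00133 and 0.0265). AFMID, which acts between the dioxygenases and KMO and was picked after its values were seen, went from 7.35 to 6.32 and 7.37 (limma adjusted p = 0.0286 and 0.0441). IDO2, a paralog of IDO1, did not pass the filter and was looked up after its values were seen, at 0 FPKM in control, 0.938 to 1.18 with LPS and 0.0758 to 0.214 with LPS+PD. KYAT3, a transaminase that draws kynurenine off to kynurenic acid, went from 5.86 to 7.99 and 6.75 (limma adjusted p = 1.03e-04 and 0.00984). The count of falling genes with LPS was 2 in place of 3 under median-of-ratios scaling, and that of rising genes with PD was 2 in place of 3 under that scaling and quantile normalization.

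**Figure D3:**
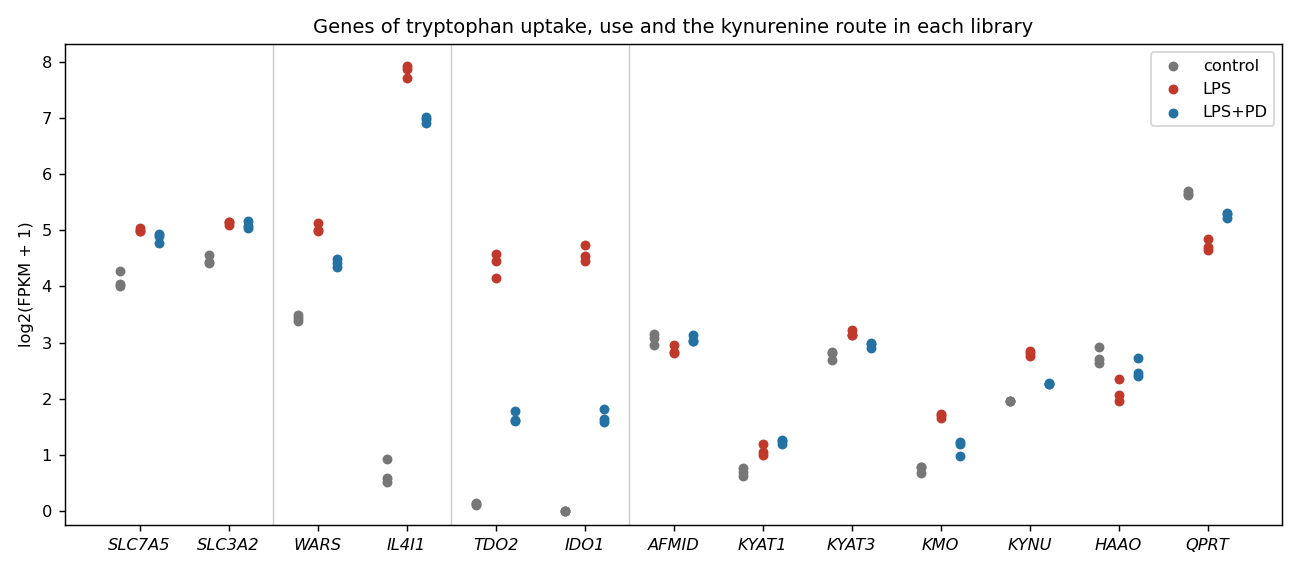
Levels as log2(FPKM + 1) in each library, with points in grey for control, red for LPS and blue for LPS+PD, of genes for tryptophan uptake, tRNA charging and oxidation, the 2 dioxygenases, and later kynurenine enzymes. TDO2 and IDO1 stand near 0 in control and highest with LPS, while QPRT is highest in control and lowest with LPS.

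WARS and IL4I1 use tryptophan outside the kynurenine route. With PD they kept 63.6% and 54.7% of their LPS level, near the 63.4% of KYNU and the 53.4% of KMO. These percentages include the control level, which differs among the genes. Of the rise in FPKM from control to LPS, 47.4% was left for WARS and 54.6% for IL4I1, against 29.8% for KYNU and 33.3% for KMO. WARS (ENSG00000140105, chromosome 14, 100333788 to 100376805, minus strand), the interferon-inducible tRNA synthetase for tryptophan, was at 9.80, 10.3 and 9.43 FPKM in control, at 30.9, 31.1 and 34.0 with LPS and at 19.2, 20.4 and 21.3 with LPS+PD. The 3 groups did not overlap. The rise was 3.25-fold (log2 difference 1.60, SE 0.05, limma adjusted p = 4.68e-09), and the level fell by 0.63 on the log2 scale with PD (SE 0.05, limma adjusted p = 2.07e-05). Exons of WARS share 385 bases with the antisense gene AL157871.4, where reads cannot be assigned without strand.

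Of the 19 other cytosolic tRNA synthetases 14 were higher and 3 lower with LPS, with log2 differences from -0.76 for QARS to 0.50 for VARS and a median of 0.29, against -0.08 over all genes. With LPS+PD against LPS 6 were higher and 2 lower, with differences from -0.10 to 0.32. That second count was 5 higher and 6 lower under median-of-ratios scaling. The difference of WARS lay outside both ranges, which is a description of these values and was not tested against the list. Of 4 listed carriers for tryptophan 2 were tested, and both subunits of the main carrier were called higher with LPS. SLC7A5 went from a mean of 16.3 to 31.2 FPKM and its partner SLC3A2 from 21.2 to 34.03, and with LPS+PD they stood at 28.4 and 33.3 (limma adjusted p = 0.155 and 0.602 against LPS). For SLC7A5 the 95% interval of the log2 difference was -0.29 to 0.02, and voom called it lower (limma adjusted p = 0.0335).

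IL4I1 (ENSG00000104951, chromosome 19, 49889654 to 49929539, minus strand), a secreted oxidase of aromatic amino acids, was at 0.908, 0.424 and 0.510 FPKM in control (17 to 41 fragments). It reached 209, 234 and 242 with LPS (9486 to 10066 fragments) and stood at 120, 126 and 130 with LPS+PD, with no overlap between groups. The LPS mean was 372-fold above control, and the log2 difference of 7.16 (SE 0.10, limma adjusted p = 2.36e-11) was the seventh highest of all genes tested. With PD the level fell by 0.86 on the log2 scale (SE 0.10, limma adjusted p = 1.61e-04) to 54.7% of LPS. It was still 204-fold above control, where only 2 genes tested had a higher log2 difference. IL4I1 shares 336 exon bases (13.1%) with NUP62 on the same strand and 75 with ATF5 on the opposite strand. NUP62 stood at 28.4 to 30.5 FPKM in the control libraries, in which IL4I1 was below 1, and at 36.8 to 40.3 in the treated libraries. ATF5 went from 10.9 to 12.5 FPKM in control to 76.4 to 80.8 with LPS and 41.4 to 46.0 with LPS+PD, and how reads in the shared bases were assigned was not tested.

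Kynurenines and indole products of IL4I1 are known to bind the aryl hydrocarbon receptor. Of 6 listed genes of that receptor 5 were tested, and 4 were higher and 1 lower with LPS (median 0.85), and 4 lower and 1 higher with LPS+PD than with LPS (median -0.43). The receptor gene AHR went from a mean of 0.520 FPKM in control to 4.14 with LPS and 2.24 with LPS+PD (limma adjusted p = 9.79e-09 and 4.66e-05), and passed the filter only through treated libraries. Its repressor AHRR went from 28.7 to 52.7 and 41.8 (limma adjusted p = 7.02e-09 and 3.26e-05) and the target gene CYP1B1 from 1.78 to 13.2 and 8.34 (limma adjusted p = 4.23e-09 and 2.47e-04). The partner ARNT moved the other way, from 21.5 to 13.4 and 14.6, and its rise with PD was not called under median-of-ratios scaling (limma adjusted p = 0.389) or quantile normalization (limma adjusted p = 0.0649).

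NAMPT rose with LPS and lay close to its control level with PD. NAMPT (ENSG00000105835, chromosome 7, 106248285 to 106286326, minus strand), the rate-limiting enzyme of NAD recycling, was at 3.62, 3.31 and 3.36 FPKM in control, at 9.39, 10.3 and 10.1 with LPS and at 4.27, 4.61 and 4.08 with LPS+PD. It rose 2.89-fold (log2 difference 1.30, SE 0.05, limma adjusted p = 3.09e-08) and fell by 1.04 on the log2 scale with PD (SE 0.05, limma adjusted p = 1.51e-06). LPS+PD libraries still lay above all control libraries, by 1.26-fold in the mean (limma adjusted p = 0.00282). Exons of NAMPT share 786 bases with an antisense gene. The processed pseudogene NAMPTP1, a near copy looked up after the values were seen, stood at 1.34 to 1.45 FPKM in control, 3.35 to 4.02 with LPS and 1.54 to 2.13 with LPS+PD, so reads may be split between both and the level of NAMPT is uncertain to that extent.

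Of 9 other listed genes of NAD synthesis 8 were tested, and 3 were higher and 3 lower with LPS (median -0.07, against -0.08 over all genes), and 2 were higher and 1 lower with LPS+PD than with LPS. For LPS+PD against LPS none was lower under quantile normalization or voom, and voom gave 3 higher. The kinase NADK, which makes NADP, went from 15.4 to 26.3 FPKM with LPS and stood at 25.6 with LPS+PD, while NAPRT, which starts from nicotinic acid, went from 54.3 to 32.01 and 42.3 (limma adjusted p = 4.97e-04 for LPS+PD against LPS). NADK2, the mitochondrial kinase, went from 12.4 to 7.26 and 8.65, and NMNAT3 from 2.32 to 0.375 and 0.559. NMNAT3 passed the filter only through control libraries, so its fall with LPS was in part set by the filter. Its higher level with LPS+PD than with LPS was called only with voom (limma adjusted p = 0.0247, against 0.199 in the main fit). Of 12 listed enzymes that consume NAD or methylate nicotinamide 9 were tested, with 4 higher and 4 lower with LPS (median -0.11, against -0.08 over all genes). With LPS+PD against LPS 5 were higher and none lower (median 0.12, against 0.07), where 23.8% of all genes tested were higher and 13.0% lower. In that last comparison 4 of these 9 enzymes were higher and 1 lower under median-of-ratios scaling, and 5 higher and 1 lower under quantile normalization. Among them BST1, which cleaves NAD at the cell surface, went from 29.7 to 15.7 and 21.7 FPKM, and CD38, with a like activity, from 8.92 to 11.3 and 11.9.

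GCH1 rose with LPS and fell with PD, and kept over 50% of its rise in each LPS+PD library. GCH1 (ENSG00000131979, chromosome 14, 54842008 to 54902852, minus strand), which starts the synthesis of tetrahydrobiopterin, was at 1.71, 1.67 and 1.81 FPKM in control, at 11.5, 12.4 and 13.02 with LPS and at 7.36, 7.21 and 7.53 with LPS+PD. No groups overlapped. The mean rose 7.12-fold (log2 difference 2.29, SE 0.05, limma adjusted p = 3.20e-10) and fell by 0.67 on the log2 scale with PD (SE 0.05, limma adjusted p = 1.09e-05), which left it 4.26-fold above control.

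The later enzymes of tetrahydrobiopterin moved in both directions. Of 12 genes 10 were in the table and 6 were tested. With LPS 2 were higher and 3 lower (median -0.17, against -0.08 over all genes), where 26.4% of all genes tested were higher and 39.7% lower. With LPS+PD against LPS 3 were higher and none lower (median 0.11, against 0.07), where 23.8% and 13.0% of all genes tested were. Quantile normalization gave 1 higher with LPS, and median-of-ratios scaling gave 2 higher with LPS+PD than with LPS. SPR, the last reductase of the synthesis, went from a mean of 20.8 FPKM to 13.5 with LPS and 20.6 with LPS+PD (limma adjusted p = 0.00112 and 0.00290), PCBD1 and QDPR, which recycle the cofactor, from 24.7 to 14.7 and 15.8 and from 9.21 to 7.48 and 9.05, and PTS, the middle enzyme, from 2.65 to 3.34 and 3.14. NOS2, the inducible nitric oxide synthase that uses the cofactor, was not tested, with means of 0.0784, 0 and 0.0216 FPKM in the 3 groups, a gene looked up after the values were seen.

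SAT1 rose with LPS to the highest mean FPKM of the 10 genes after IL4I1. SAT1 (ENSG00000130066, chromosome X, 23783173 to 23786226, plus strand), which acetylates spermidine and spermine for export or breakdown, was at 5.27, 4.56 and 5.03 FPKM in control, at 38.3, 41.9 and 38.2 with LPS and at 15.1, 14.3 and 14.2 with LPS+PD. It rose 7.96-fold (log2 difference 2.76, SE 0.05, limma adjusted p = 1.72e-10) and fell by 1.38 on the log2 scale with PD (SE 0.05, limma adjusted p = 3.71e-07) to 36.9% of LPS. Of 13 other polyamine genes 10 were tested, with 4 higher and 3 lower with LPS (median 0.03, against -0.08 over all genes). With LPS+PD against LPS 2 were higher and 3 lower (median -0.01, against 0.07 over all genes). With LPS 6 were higher under median-of-ratios scaling. SMOX, an oxidase of spermine, went from 0.524 to 2.30 and 1.10 FPKM (limma adjusted p = 6.70e-05 and 0.00552, passing the filter only through treated libraries), the spermidine synthase SRM from 44.1 to 57.02 and 64.6, and the antizyme genes OAZ1 and OAZ2 from 282 to 227 and 226 and from 7.35 to 9.80 and 8.28. The higher level of SRM with LPS+PD than with LPS was not called under median-of-ratios scaling (limma adjusted p = 0.0836).

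ACOD1 and CH25H were close to the limit of detection in all libraries. ACOD1 (ENSG00000102794, chromosome 13, 76948497 to 76958642, plus strand), which makes itaconate from cis-aconitate and is strongly induced by LPS in mouse macrophages, had no fragment in control, 7 to 13 in each LPS library and 1 to 9 in each LPS+PD library. Its FPKM values were 0.182, 0.366 and 0.368 with LPS and 0.231, 0.0271 and 0.155 with LPS+PD, so these 2 groups overlapped. Over the 3 libraries of a group this was 33 fragments with LPS (95% Poisson interval 22.7 to 46.3) and 16 with LPS+PD (9.15 to 26.0), an interval that covers counting error only. The LPS mean was at least 3.64-fold higher than the floor of 3 fragments per control library. A two-sided exact permutation test gave p = 0.1 for LPS against control, the smallest that 3 against 3 libraries allow, and p = 0.2 for LPS+PD against LPS.

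CH25H (ENSG00000138135, chromosome 10, 89205629 to 89207314, minus strand), a single-exon gene whose product hydroxylates cholesterol, had no fragment in control, 4 to 8 in each LPS library and 0 to 3 in each LPS+PD library. The values were 0.269, 0.145 and 0.146 FPKM with LPS and 0, 0.0699 and 0.0999 with LPS+PD, without overlap, and exact permutation p = 0.1 for both comparisons. The sums were 16 fragments with LPS (95% Poisson interval 9.15 to 26.0) and 5 with LPS+PD (1.62 to 11.7).

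Of 20 genes listed for itaconate and the TCA cycle, which include a carrier, 19 were tested, with 6 higher and 5 lower with LPS (median -0.02). With LPS+PD against LPS 9 were higher and none lower (median 0.11, against 0.07 over all genes). Under median-of-ratios scaling these counts were 9 and 4, and 4 and none. The citrate carrier SLC25A1 went from 123 FPKM to 67.0 with LPS and 86.1 with LPS+PD (limma adjusted p = 9.67e-07 and 0.00135), IDH1 from 25.8 to 15.8 and 18.0 (its rise with PD was not called under median-of-ratios scaling, limma adjusted p = 0.157), citrate synthase CS from 26.2 to 35.8 and 36.7, and OGDH from 18.9 to 28.3 and 27.8. Of 7 listed oxysterol genes 3 were tested and all 3 were higher with LPS, while 1 was higher and 2 were lower with LPS+PD than with LPS. GPR183, the receptor of an oxysterol made from the product of CH25H, went from 5.90 FPKM to 21.4 and 12.5 (limma adjusted p = 1.53e-08 and 3.26e-05) and CYP7B1, which makes that ligand, from 2.20 to 3.81 and 2.91. CYP27A1, another sterol hydroxylase, was higher with LPS than in control and higher again with LPS+PD, at 1.47, 3.74 and 5.98 (limma adjusted p = 1.29e-05 and 0.00146).

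The order of the 10 levels changed between groups. In control WARS was highest at 9.85 FPKM, followed by SAT1 at 4.95, NAMPT at 3.43, KYNU at 2.87 and GCH1 at 1.73, while KMO at 0.676 and IL4I1 at 0.614 overlapped. With LPS the order was IL4I1 at 229 ± 17.0 (SD, n = 3), SAT1 at 39.4 ± 2.11, WARS at 32.0 ± 1.75, IDO1 at 23.0 ± 2.59, GCH1 at 12.3 ± 0.749, NAMPT at 9.92 ± 0.475, KYNU at 6.00 ± 0.211 and KMO at 2.24 ± 0.0906, with no overlap between neighbours down to KMO. With LPS+PD IL4I1 stayed highest at 125 ± 5.01, WARS at 20.3 ± 1.06 stood above SAT1 at 14.6 ± 0.479, and IDO1 at 2.20 ± 0.270 came seventh, below KYNU at 3.80 ± 0.0390. ACOD1 and CH25H were lowest in both treated groups and overlapped. FPKM here rests on the total exon length of a gene, which is 17600 bases for KYNU and 1686 for CH25H. With the length of the longest coding transcript in its place, an alternative added after the data were seen, NAMPT and GCH1 traded places in both treated groups and no other rank changed.

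**Figure D4:**
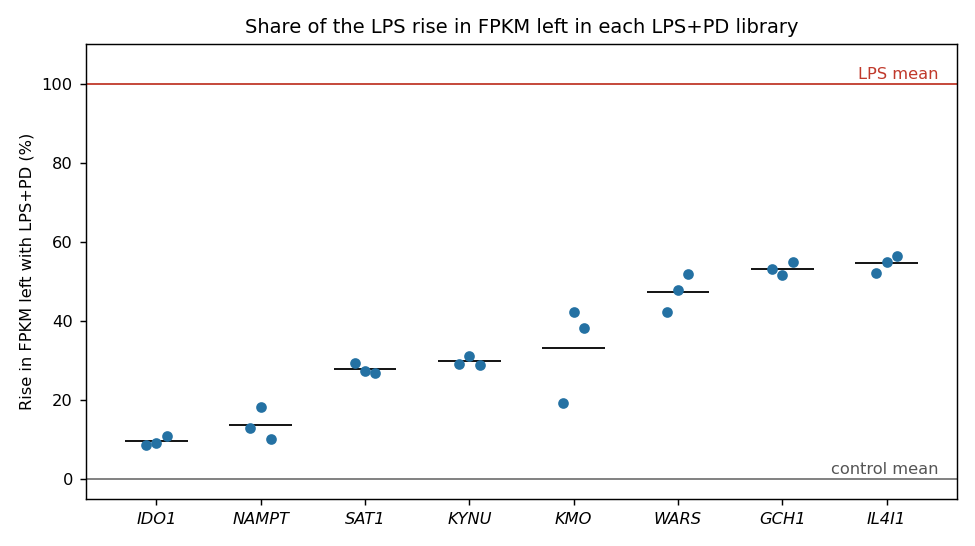
Share of the LPS rise in FPKM left in each LPS+PD library for the 8 genes tested, where 0% is the control mean and 100% the LPS mean, with points for the 3 libraries and a line for their mean. The mean share runs from 9.59% for IDO1 to 54.6% for IL4I1.

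The share of the LPS rise left with PD varied among the genes. Measured on FPKM between the control and the LPS mean, the share left was 9.59% for IDO1, 13.7% for NAMPT, 27.9% for SAT1, 29.8% for KYNU, 33.3% for KMO, 47.4% for WARS, 53.2% for GCH1 and 54.6% for IL4I1. The 3 LPS+PD libraries gave 8.73 to 10.9% for IDO1, 10.04 to 18.2% for NAMPT and 51.7 to 54.8% for GCH1, so GCH1 lay apart from IDO1 and NAMPT, while IDO1 and NAMPT overlapped. GCH1 also overlapped IL4I1 and WARS (42.4 to 51.9%), and SAT1 overlapped KYNU. Differences between genes in this share were not tested. KMO spread widest, from 19.3 to 42.3%, across the values of SAT1 and KYNU, with its low value from replicate 7.

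For 9 of the 10 genes every LPS+PD library lay above every control library, against 29.0% of the genes tested, and CH25H was the exception. ACOD1 and CH25H are not among the genes tested. All 8 genes tested were called higher with LPS+PD than in control, against 26.0% of all genes tested and 81.5% of the 3621 genes called higher with LPS. IDO1, KMO and IL4I1 passed the filter only through treated libraries, so for these this call was also in part set by the filter. On the log2(FPKM + 1) scale the LPS+PD level was then tested against the midpoint of control and LPS, where 17.4% of all genes tested were called above and 11.0% below, and 43.0% and 6.55% of those 3621 genes. IL4I1 (2.72, SE 0.09, limma adjusted p = 6.58e-08) and GCH1 (0.47, SE 0.04, limma adjusted p = 5.66e-05) lay above it, and NAMPT lay below it (-0.39, SE 0.05, limma adjusted p = 3.53e-04), under every alternative run. WARS was called above (0.17, limma adjusted p = 0.0187) and KYNU below (-0.12, limma adjusted p = 0.0422). The WARS call was lost without a filter (limma adjusted p = 0.0675), under median-of-ratios scaling (limma adjusted p = 0.0547) and without replicate 8 (limma adjusted p = 0.0649) or 9 (limma adjusted p = 0.0849), and the KYNU call with a pseudocount of 0.1 (limma adjusted p = 0.0649), a filter at an FPKM of 5 (limma adjusted p = 0.0601) and without any 1 library other than replicate 4 (limma adjusted p up to 0.119). IDO1 was called below (-0.61, limma adjusted p = 3.25e-04), but as it had no fragment in control its midpoint rests on the pseudocount, and the value turned to 0.60 with a pseudocount of 0.1 and to 2.25 with voom. SAT1 (0.01, 95% interval -0.10 to 0.11, limma adjusted p = 0.942) and KMO (-0.09, 95% interval -0.26 to 0.08, limma adjusted p = 0.422) were not called on either side.

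Ratios between enzymes that use tryptophan or its products were compared next. The ratio of WARS to IDO1 in FPKM was 1.48, 1.40 and 1.31 in the LPS libraries and 9.58, 9.75 and 8.49 in the LPS+PD libraries, with no overlap. On the log2 scale with a pseudocount of 1 the mean ratio was 3.44 ± 0.0584 in control, 0.46 ± 0.0821 with LPS and 2.74 ± 0.0624 with LPS+PD (SD, n = 3, exact permutation p = 0.1 for LPS against control and for LPS+PD against LPS, the smallest possible). KYNU to IDO1 was at 1.95 ± 0.00262, -1.77 ± 0.113 and 0.59 ± 0.125 (exact permutation p = 0.1 for both comparisons). IDO1 was at 0 in control, so the pseudocount sets both control ratios. With a pseudocount of 0.1 the difference between LPS and control went from -2.98 to -6.16 for WARS to IDO1 and from -3.73 to -6.81 for KYNU to IDO1. The ratio of KMO to KYNU in FPKM was 0.249, 0.206 and 0.251 in the control libraries, 0.391, 0.355 and 0.375 with LPS, and 0.258, 0.348 and 0.337 with LPS+PD. Every LPS library lay above every control and every LPS+PD library. On the log2 scale with a pseudocount of 1 the means were -1.21 ± 0.0619, -1.11 ± 0.0524 and -1.13 ± 0.123, with exact permutation p = 0.1 for LPS against control and p = 0.9 for LPS+PD against LPS. As KMO is low these differences, 0.10 and -0.02, rest on the pseudocount, and with 0.1 in its place they were 0.56 and -0.22 (exact permutation p = 0.1 for both). Adjusted over the 6 ratio comparisons with a pseudocount of 1, p = 0.1 and 0.9 in these exact tests became 0.12 and 0.9.

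Over the 9 libraries the profile of log2(FPKM + 1) of IDO1 was most like that of KYNU among the other 7 members tested (Pearson r = 0.999), and that of IL4I1 most like GCH1 (r = 0.983). WARS and GCH1 were nearest to each other (r = 0.991), and the lowest r between 2 of the 8 was 0.734. Among all other protein-coding genes tested, those most like IDO1 were PLEKHO2, ISG20 and TFPI2 (r = 0.999 each). ISG20, an interferon-induced exonuclease, had means of 0.0752, 5.82 and 1.25 FPKM in control, LPS and LPS+PD, and PLEKHO2 11.5, 44.5 and 19.7. Those most like IL4I1 were NFKBIA, which encodes an inhibitor of NF-kB, at 16.2, 218 and 158 FPKM, GAS7 at 2.88, 33.7 and 26.1, and EBI3, a cytokine subunit, at 0.282, 452 and 205. All points share 3 tight groups of libraries, and r is given as a description. It does not reflect the size of a change, so genes with unlike differences can have a high r. As IDO1 was at 0 in control, its neighbours also rest on the pseudocount of 1, and r was not computed with another. ACOD1 did not pass the filter and was given no such neighbours.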

How the data were processed

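The authors deposited 1 table of FPKM values for 34643 genes, with 1 column per library of poly(A)-enriched RNA. HISAT2, StringTie, FastQC, bcl2fastq and the build GRCh38 appear, without versions, in the submitters' processing notes, and strand use or the handling of multiply mapped reads is not given in the sources used here. Groups follow the sample titles. FPKM times total exon length in GENCODE v29 gave whole fragments, within a tolerance of 0.05, for 97.6 to 97.8% of values above 0, and hence the depth of 15641358 to 17875224 fragments per library. Differences were fitted with limma 3.58.1 in R 4.3.3 (eBayes with an intensity trend, all 3 groups in one model) on log2(FPKM + 1), which understates changes of low genes, over genes that reached 1 FPKM in 3 or more libraries. Adjustment was Benjamini-Hochberg over all 13692 genes. The fit was also run on simulated data with a fixed spread, not one estimated from these libraries, and no result here rests on that. Alternatives covered pseudocount, filter, scaling, spread estimate, groups in the fit, voom on recovered fragments and each library left out. The members, the 14 other gene lists and the tests were chosen with earlier results of these data known. All 10 members are named, with up to 4 genes per list (smallest p), the 3 genes most like IDO1 and IL4I1, and others said to be looked up later. Promoters are from RefSeq (GRCh38.p14).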

Additional observations from a re-analysis of the deposited data

How the results depend on the processing

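The calls of the 8 genes tested for LPS against control, LPS+PD against LPS and LPS+PD against control held under each alternative in which a gene was tested. With a pseudocount of 0.1, 1 gene in place of 3 was called below the midpoint of control and LPS, where IDO1 turned to 0.60 (2.25 with voom). There SAT1, never called, had values from -0.0195 to 0.0272 with 1 library left out and -0.0214 under median-of-ratios scaling. KMO to KYNU, LPS+PD against LPS, ran from -0.0616 to 0.0492 with 1 library left out and was -0.219 with a pseudocount of 0.1, against -0.0216. Over all genes, a filter at an FPKM of 5 gave 3295 lower for LPS against control and 2445 lower for LPS+PD against control, of 7807 genes tested, and median-of-ratios scaling gave 2058 higher for LPS+PD against LPS. No paired analysis was possible because the replicate numbers run from 1 to 9 and no 2 groups share one. Depth limited ACOD1 and CH25H, with at most 13 and 8 fragments in a library.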
